A study of Mus musculus with 89 samples.

Results

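The 9 genes Olig1, Olig2, C1ql1, Sox10, Pdgfra, Cspg4, Neu4, Gpr17 and Lhfpl3 are markers of the oligodendrocyte lineage, and they were taken by name from the 24411 genes of the deposited tables. They were followed in single cells of the mouse dentate gyrus, sorted from homozygous Nestin:CFPnuc mice (B6.Cg-Tg(Nes-CFP)1Enik/J, strain C57BL/6), in which a Nestin promoter drives a nuclear fluorescent protein. All cells carried this reporter, and 48 were taken at 2 months of age and 41 at 4.5 months. A deposited table placed 60 cells in a class named qNSC, 18 in aNSC and 11 in IPC, taken here to mean quiescent and activated neural stem cells and intermediate progenitors. The qNSC cells carried 3 colour codes in that table, called green (25 cells), red (26 cells) and blue (9 cells) here after their hue. What the colours stand for and how the classes were drawn is not given in the sources used here.

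Each sample was 1 cell and no label named an animal, so each age was treated as 1 sample. Differences between ages, classes and colours are therefore given as sizes with the SD over cells, with no test and no p-value. The shallowest cell had 234608 counts, the deepest 1896075 and the median cell 912394, and between 2156 and 6046 genes were read per cell. A cell is said to carry a gene where it had 10 or more estimated counts of it. Levels are given as log2(CPM + 1), where CPM is counts per 1000000 counts of the cell. Shares of cells have exact Clopper-Pearson 95% intervals, which cover counting error only.

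Oligodendrocytes, the myelin-forming cells of the brain, arise from precursors that divide throughout adult life, including in the hippocampus. Olig1 and Olig2 are basic helix-loop-helix transcription factors of this lineage, and with Sox10, a high mobility group transcription factor, they direct precursor identity and later myelin gene expression. Precursors depend on platelet-derived growth factor, which they sense through the receptor encoded by Pdgfra, and Olig2 is also known from neural stem cells and some astrocytes.

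Of the 9 genes, 8 are placed here with the GENCODE annotation of mm10, the build named in the submitters' processing notes. Olig1 (ENSMUSG00000046160.6) lies at chr16:91269772-91271933 and Olig2 (ENSMUSG00000039830.9) at chr16:91225457-91228677, both on the plus strand and 41095 bases apart. Pdgfra (ENSMUSG00000029231.15) lies at chr5:75152292-75198215 and Lhfpl3 (ENSMUSG00000106379.1) at chr5:22746059-23275597, both on the plus strand. Sox10 (ENSMUSG00000033006.10) lies at chr15:79154908-79165240 and C1ql1 (ENSMUSG00000045532.5) at chr11:102939264-102946688, both on the minus strand. Cspg4 (ENSMUSG00000032911.6) lies at chr9:56865033-56899870 and Neu4 (ENSMUSG00000034000.15) at chr1:94020451-94028334, both on the plus strand.

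The promoters of Olig2 and Pdgfra are shown because these genes parted in the cells: Olig2 was carried by cells that had no more than 1 Pdgfra count. RefSeq windows (GRCm38.p6) were at hand for 5 of the 9 genes. The bases shown lie upstream of the first annotated exon on the plus strand, chr16:91225300-91225456 for Olig2 and chr5:75152001-75152250 for Pdgfra. Capitals mark the E-box CANNTG, the motif that basic helix-loop-helix factors bind, searched on both strands, which read the same for this motif.
Olig2: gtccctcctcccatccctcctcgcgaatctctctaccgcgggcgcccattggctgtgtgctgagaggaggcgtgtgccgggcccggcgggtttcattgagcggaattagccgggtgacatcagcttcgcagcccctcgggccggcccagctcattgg
Pdgfra: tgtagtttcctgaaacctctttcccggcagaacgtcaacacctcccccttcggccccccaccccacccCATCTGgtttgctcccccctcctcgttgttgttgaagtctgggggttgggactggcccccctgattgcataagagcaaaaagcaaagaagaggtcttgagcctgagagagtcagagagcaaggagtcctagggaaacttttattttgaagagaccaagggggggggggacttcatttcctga
The Olig2 stretch had no E-box, 14 CpG dinucleotides in 157 bases and 66.9% G or C. The Pdgfra stretch had 1 E-box, CATCTG, 4 CpG dinucleotides in 250 bases and 54.4% G or C. Over the 250 bases upstream of the RefSeq start, Neu4 had 1 E-box, Lhfpl3 had 2, both of the form CAGCTG, and Cspg4 had none. Of 32851 windows of this length, 66.2% held a CANNTG, 14.4% held CATCTG on either strand and 13.0% held CAGCTG, each of which is also a CANNTG. The Sox-type motif ACAAAG was found on neither strand in these 5 windows and in 16.5% of all windows. A match of letters is a description and shows no binding.

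Olig1, Olig2, C1ql1, Sox10, Pdgfra, Neu4 and Lhfpl3 were all carried by each of 7 cells of the aNSC class, 4 taken at 2 months and 3 at 4.5 months. Cspg4 was carried by 5 and Gpr17 by 6 of these 7 cells. These are the cells with 10 or more Pdgfra counts, called Pdgfra cells below. Pdgfra had 699, 1389, 643 and 3057 counts in the 4 cells of 2 months and 531, 1822 and 615 in the 3 cells of 4.5 months. In the 82 other cells its highest count was 1, found in 3 cells, so no cell lay near the limit of 10. Since Pdgfra chose these cells, its level in them is a description of the choice.

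**Figure D1:**
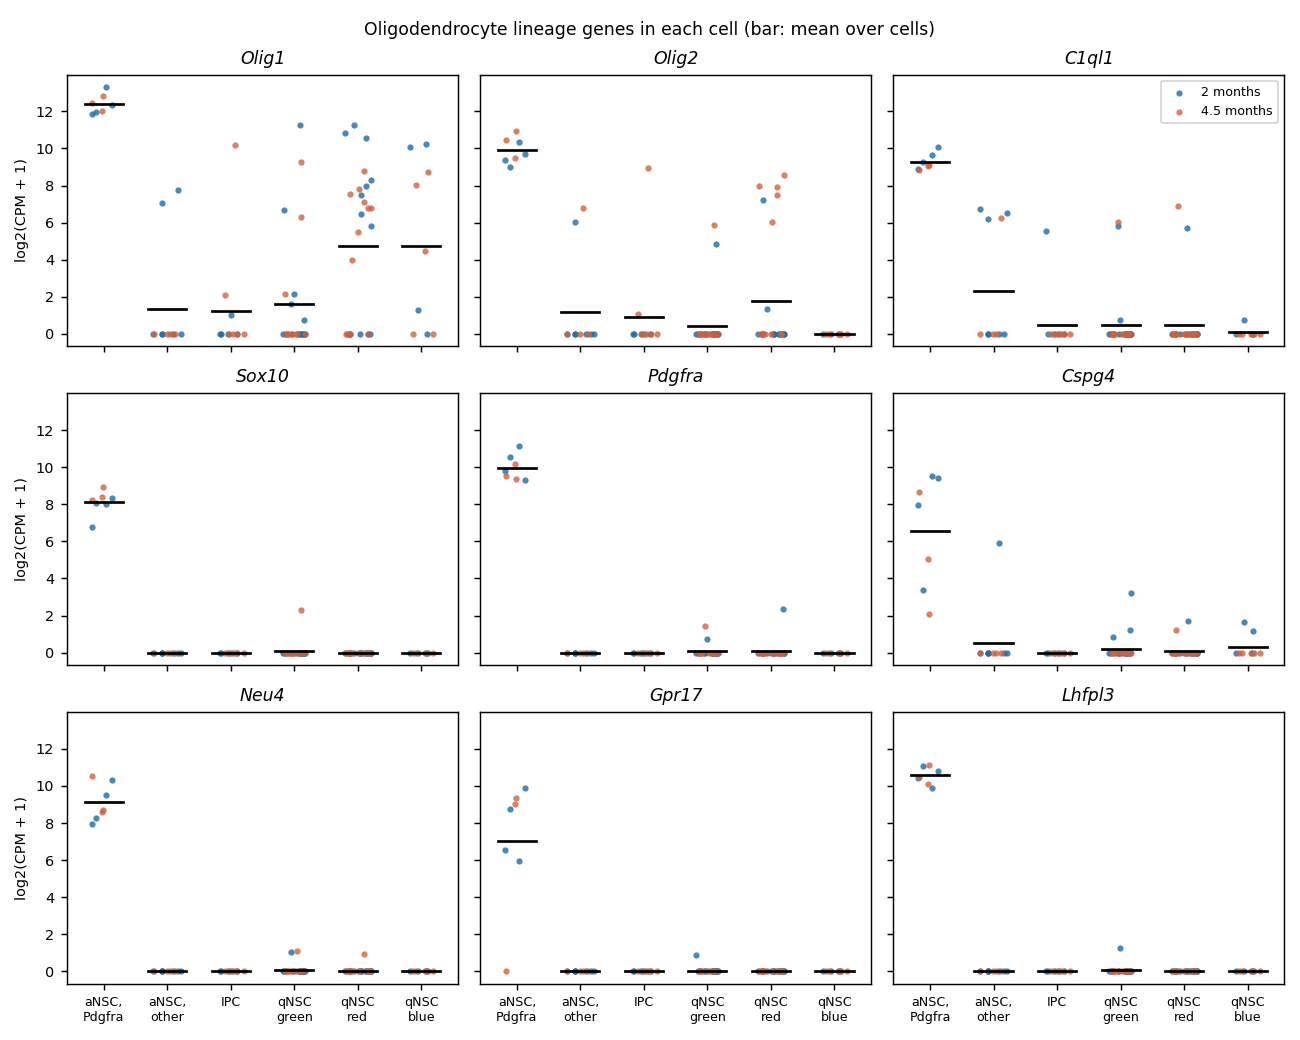
Level of each gene as log2(CPM + 1) on the vertical axis in each of the 89 cells (points, coloured by age), by class and qNSC colour, with the mean over cells as a bar. The 7 Pdgfra cells are high for all 9 genes except for single cells low in Gpr17 or Cspg4, while outside them only Olig1, Olig2 and C1ql1 reach high levels in several cells.

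Among the transcription factors, Olig1 had 2901, 3737, 5215 and 13624 counts in the Pdgfra cells of 2 months and 4025, 6661 and 6829 in those of 4.5 months. Olig2 had 532, 477, 843 and 1716 counts at 2 months and 1035, 1166 and 1834 at 4.5 months. Sox10 had 86, 248, 326 and 346 counts at 2 months and 217, 534 and 462 at 4.5 months. All 7 cells carried all 3 factors, and the lowest Sox10 cell was the 2-month cell with the fewest Olig1 counts.

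Among the surface proteins, Lhfpl3, a tetraspan membrane protein, was the most even: it had 1098, 2060, 1779 and 1263 counts at 2 months and 1043, 1785 and 2109 at 4.5 months. Cspg4, which encodes the NG2 proteoglycan, had 194, 9, 691 and 973 counts at 2 months and 289, 52 and 3 at 4.5 months. Thus 5 of the 7 cells carried Cspg4, and 1 cell of each age had fewer than 10 counts. Gpr17, a G protein-coupled receptor that is transiently high as precursors commit to differentiation, had 72, 400, 930 and 80 counts at 2 months and 0, 825 and 605 at 4.5 months. The cell with no Gpr17 count had 723449 counts in all, the lowest total of the 7, which ran up to 1597524, and 531 counts of Pdgfra.

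C1ql1, a secreted protein of the C1q family, had 379, 576, 1065 and 1054 counts at 2 months and 334, 861 and 515 at 4.5 months. Neu4, a sialidase, had 195, 293, 1256 and 973 counts at 2 months and 1068, 625 and 396 at 4.5 months. Both genes were carried by all 7 cells, and the ages overlapped for both.

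Per transcript length, in TPM, Olig1 stood highest of the 9 genes in the 7 Pdgfra cells, with a mean of 4782 ± 1853 TPM (SD, 7 cells) and a range of 2713 to 8125. C1ql1 (1023 ± 353 TPM), Lhfpl3 (958 ± 314 TPM) and Olig2 (786 ± 393 TPM) followed, below Olig1 by more than its SD, and these 3 neighbours differed by less than their SD. Pdgfra (286 ± 146 TPM), Neu4 (269 ± 201 TPM), Sox10 (198 ± 78.9 TPM), Gpr17 (127 ± 116 TPM) and Cspg4 (62.4 ± 65.0 TPM) came lower, with Pdgfra below Olig2 by more than either SD and the steps among these 5 within the larger SD. The spread was smallest for Lhfpl3, with a coefficient of variation of 32.8%, and largest for Cspg4, with 104%.

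Between the ages, in the Pdgfra cells alone, 7 of the 9 genes differed by less than 1 in mean log2(CPM + 1). Olig1 was at 12.43 ± 0.40 (SD, 3 cells) at 4.5 months and 12.37 ± 0.67 (SD, 4 cells) at 2 months, and Lhfpl3 at 10.58 ± 0.50 and 10.56 ± 0.52. Sox10 was higher by 0.72 and Olig2 by 0.70 at 4.5 months, Pdgfra was at 9.68 ± 0.43 against 10.21 ± 0.81, and C1ql1 at 9.01 ± 0.13 against 9.47 ± 0.49. Cspg4 was at 5.26 ± 3.30 against 7.58 ± 2.88 and Gpr17 at 6.11 ± 5.30 against 7.77 ± 1.85, so that both were lower by 1 or more at 4.5 months, by less than the SD of the cells. Of all genes measured in these cells, 40.3% were lower by 1 or more at 4.5 months and 25% higher, so 2 of 9 is no larger a share than the background.

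A reading of these cells as precursors, which no deposited label gives, was set against other genes. Of 20 further precursor genes, the 7 cells carried 14 to 18 each, against 5 to 9 in the red qNSC cells. Of these 20 genes 19 were measured, meaning read in 20% or more of the cells in 1 of the groups. Of the 19, 18 were higher by 1 or more than in the 82 other cells, with a median difference of 3.83. Genes nearly absent from the 82 cells, such as Nxph1 and Matn4, entered only through the Pdgfra cells, so they could only come out higher. This limit holds for each list set against the 82 cells below. The median over all genes measured was 0.94, with 48.3% higher by 1 or more and 11.4% lower. Nxph1, a secreted ligand of neurexins, was carried by 7 of 7 and 0 of 82 cells, at 9.33 ± 0.49 against 0.04 ± 0.28. The extracellular matrix gene Matn4 and the auxiliary calcium channel subunit Cacng4 were also carried by 7 of 7 and 0 of 82 cells. Sulf2, which trims heparan sulphate, was carried by 7 of 7 and 5 of 82 cells, at 9.0 ± 0.53 against 0.52 ± 1.56, and Vcan, a chondroitin sulphate proteoglycan, by 6 of 7 and 5 of 82.

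Other genes of that list were shared with the stem cells. Ptprz1, a receptor phosphatase, was carried by 7 of 7 Pdgfra cells and 81 of 82 others, and its mean differed by 1.13. The proteoglycan genes Cspg5 (7 of 7 and 72 of 82 cells) and Bcan (7 of 7 and 67 of 82) were similarly broad.

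Genes of committed precursors were partly present. Of 13 such genes 8 were measured, and 7 of them were higher by 1 or more, beside 48.3% of all genes, with a median of 4.24 over the 8. Tmem163, a zinc transporter, was carried by 7 of 7 and 0 of 82 cells, at 7.69 ± 0.68 against 0.01 ± 0.10. Sox8, a relative of Sox10, was carried by 7 of 7 and 31 of 82, and the kinase gene Fyn by 6 of 7 and 33 of 82. Enpp6 and Bmp4, both known from newly committed cells, were carried by none of the 7, and Myrf, the myelin regulatory factor, by 1.

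Myelin genes were low or patchy in the Pdgfra cells. Of 14 measured genes of an 18-gene list, 6 were higher by 1 or more and 1 was lower, beside 48.3% and 11.4% of all genes. Their median was 0.95 beside 0.94 for all genes. Cnp was carried by 6 of 7 and 52 of 82 cells, Mbp by 3 of 7 and 13 of 82, and Tspan2 by 4 of 7 and 4 of 82. Ugt8a, which makes the galactolipids of myelin, was carried by 4 of 7 and 1 of 82 cells. Mog and Cldn11 were carried by none of the 7. Car2, a carbonic anhydrase, was the gene of the list that was lower, carried by 2 of 7 and 67 of 82 cells. Over 10 markers of mature oligodendrocytes the 7 cells carried 1 to 7, with a median of 2, and the cell with 7 of them had 930 Gpr17 counts, the highest of the 7.

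Astrocyte genes and part of the stem cell genes were lower. Of 12 astrocyte genes 11 were lower by 1 or more in the Pdgfra cells, beside 11.4% of all genes, with a median of −4.31. S100b, a calcium-binding protein also known from precursors, was higher, carried by 7 of 7 and 35 of 82 cells. Gja1, a gap junction protein, was carried by none of the 7 and by 75 of 82, and Mlc1 by 1 of 7 and 73 of 82. Of 14 quiescent stem cell genes 12 were measured, with a median of −1.46. Of the 12, 7 were lower and 3 higher by 1 or more, beside 11.4% and 48.3% of all genes. The higher ones were Fabp7, a fatty acid binding protein (9.49 ± 0.56 against 7.32 ± 3.41), Hes5, a target of Notch signalling (6.19 ± 3.02 against 4.30 ± 3.78), and Frzb, a secreted Wnt antagonist (3.74 ± 4.42 against 2.32 ± 4.06). Sox9 and Hopx were each carried by 0 of 7 and 76 of 82 cells, and Gfap by 0 of 7 and 64 of 82. Nes, whose promoter drives the reporter used for the sort, was carried by none of the 7 and by 4 of the 82. Few markers of vessels, fibroblasts and microglia were carried by the 7 cells, at most 3 of 8 endothelial, 1 of 8 mural, 0 of 5 fibroblast and 1 of 7 microglial markers. Their summed levels reached at most 323 CPM for endothelial, 25.04 CPM for mural, 1.27 CPM for fibroblast and 429 CPM for microglial markers, and the part of these in the results was not tested. Cycling genes were uneven, with 1 to 10 of 11 carried per cell, Pcna by 5 of 7, Mcm7 by 5 of 7 and Mki67 by 1 of 7. The cells with 8 and 10 of the 11 were of 2 months, and those of 4.5 months carried 1, 3 and 1. Of the 11 genes 10 were lower by 1 or more at 4.5 months, beside 40.3% of all genes. Their median was −2.96 beside −0.41 for all genes.

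Relatives, ligands and partners of the 9 genes showed no common direction. Of 14 measured of 24, 5 were higher and 3 lower by 1 or more, beside 48.3% and 11.4% of all genes. C1ql2, a relative of C1ql1, was carried by 4 of 7 Pdgfra cells and 0 of 82 others, and C1ql3 by 2 of 7 and 2 of 82. Pdgfrb, the other platelet-derived growth factor receptor, was carried by none of the 7 and by 21 of 82 cells, and the ligand gene Pdgfd by 0 of 7 and 20 of 82. Tcf4, a helix-loop-helix partner of the Olig proteins, was level at 8.12 ± 1.49 and 8.04 ± 2.21. Neu1, the lysosomal sialidase, was at 3.12 ± 3.90 and 2.96 ± 3.42. Olig3, C1ql4, Lhfpl1 and Lhfpl5 had no read in any cell.

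When all cells of a class were pooled, the 7 Pdgfra cells carried the class difference. Against the qNSC cells, the 18 aNSC cells were higher by 1 or more for 9 of the 9 genes, beside 41.8% of all genes measured (5.94% were lower), with differences from 2.21 for Olig1 to 4.60 for C1ql1. Of the 9 genes, only Olig1 was read in enough qNSC cells to be measured through them. The others entered only through the aNSC cells and could hardly come out lower. The count of 9 of 9 therefore does not set the genes apart from the share of all genes. Without the 7 cells, 2 of the 9 genes were still measured. Olig1 was then lower in aNSC than in qNSC, at 1.34 ± 2.99 (SD, 11 cells) against 3.44 ± 4.07 (SD, 60 cells), a difference of −2.09. C1ql1 was higher, at 2.34 ± 3.24 against 0.43 ± 1.54, a difference of 1.90. Here too C1ql1 entered only through the aNSC cells and could hardly come out lower. Of all genes measured in that comparison, 38.9% were higher and 7.22% lower by 1 or more, with a median of 0.70. Both differences were smaller than the larger SD of their groups.

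Outside the Pdgfra cells the 9 genes split. Sox10, Neu4, Gpr17 and Lhfpl3 were carried by 0 of 82 cells, with highest counts of 4, 1, 1 and 2. For 0 of 82 an approximate bound, 3 cells of the total, is a share of 3.66% of cells with 10 or more counts. This bound is not an exact interval. Cspg4 was carried by 1 cell, an aNSC cell of 2 months with 111 counts. That cell also carried 6 of 8 mural markers and 5 of 8 endothelial markers, and Cspg4 is known from pericytes as well as precursors. Olig1 was carried by 26 of the 82 cells (31.7%, 95% interval 21.9 to 42.9), Olig2 by 11 (13.4%, 6.89 to 22.7) and C1ql1 by 9 (11%, 5.14 to 19.8). The 82 cells held 38 with at least 1 of these 3 genes and 0 with all 3, whereas all 7 Pdgfra cells carried the 3 together. With Olig2 and C1ql1 carried by so few of the 82 cells, the count of 0 does not show that the genes keep apart.

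Olig1 was the widest of them. In the red qNSC cells it was carried by 8 of 13 cells at 2 months, with 22, 79, 94, 245, 307, 1592, 2189 and 3325 counts. At 4.5 months it was carried by 7 of 13 red cells, with 46, 85, 122, 143, 172, 188 and 488 counts, and an eighth had 9. The blue cells carried it in 2 of 4 cells at 2 months, with 867 and 913 counts, and in 2 of 5 at 4.5 months, with 116 and 142. Of the green cells, 4 of 25 carried it, with 128 and 2657 counts at 2 months and 63 and 629 at 4.5 months.

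The highest of these values, 3325 counts in a red cell, was 2486 CPM, below the lowest Pdgfra cell at 3681 CPM. That red cell had 2 Olig2 counts and no C1ql1 count. Among the dividing classes, 2 of the 11 remaining aNSC cells carried Olig1, both of 2 months, with 45 and 100 counts. Of the 11 IPC cells 1 did, a cell of 4.5 months with 1314 counts of Olig1 and 542 of Olig2. That cell carried 3 of 9 intermediate progenitor, 4 of 11 cycling and 7 of 12 astrocyte markers, the most astrocyte markers of any IPC cell.

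By mean log2(CPM + 1) the order for Olig1 after the Pdgfra cells (12.39 ± 0.53) was blue (4.76 ± 4.55), red (4.73 ± 4.11), green (1.61 ± 3.20), the other aNSC cells (1.34 ± 2.99) and IPC (1.22 ± 3.06). Each neighbour after the first differed by less than the SD. The mean of IPC rests on the cell with 1314 counts, the other IPC cells having at most 3.

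Olig2 outside the Pdgfra cells was rarer and differently placed. It was carried by 6 of 26 red cells, 1 of 13 at 2 months with 220 counts and 5 of 13 at 4.5 months with 54, 180, 269, 316 and 418. The 9 blue cells had no Olig2 count at all. Green cells carried it in 1 cell of each age, with 21 and 47 counts, and the other aNSC cells in 1 cell of each age, with 22 and 119. The highest outside the Pdgfra cells, the IPC cell with 542 counts, was at 489 CPM, and the lowest Pdgfra cell at 506 CPM. In mean level the order was red (1.79 ± 3.24), other aNSC (1.16 ± 2.59), IPC (0.91 ± 2.68) and green (0.43 ± 1.49), with every step smaller than the SD.

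C1ql1 was found most often in the aNSC cells without Pdgfra, 3 of 7 at 2 months with 28, 59 and 74 counts and 1 of 4 at 4.5 months with 54. The green cells carried it in 2 of 25, with 53 and 39 counts, and the red cells in 2 of 26, with 55 and 73. It was carried by 1 of 11 IPC cells, with 47 counts, a cell with 10 of 11 cycling and 7 of 9 intermediate progenitor markers. All of these lay below the lowest Pdgfra cell, with at most 118 CPM against 462 CPM. The share in aNSC, 36.4%, had an interval of 10.9 to 69.2, that in the green cells one of 0.984 to 26 and that in the red cells one of 0.946 to 25.1, over cells of 1 sample for each age.

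**Figure D2:**
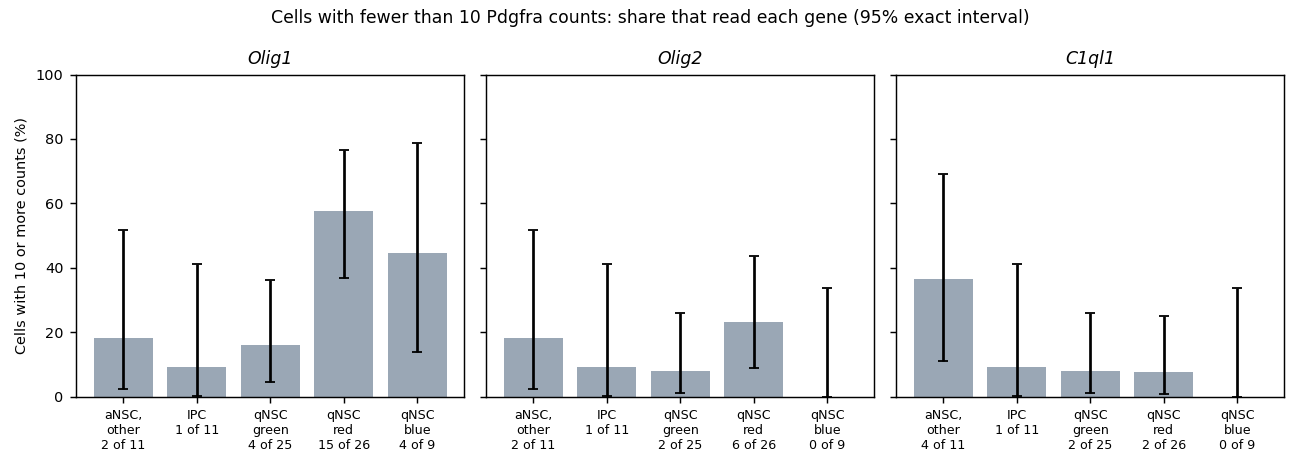
Percent of cells with 10 or more counts of Olig1, Olig2 and C1ql1 on the vertical axis, among the 82 cells with fewer than 10 Pdgfra counts, by class and qNSC colour; bars are shares and lines are exact 95% intervals. Olig1 stands at 57.7% of red and 44.4% of blue cells against 16% of green ones, and the intervals cover counting error over cells only.

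The genes met in few cells. Olig1 and Olig2 were both carried by 7 of the 82 cells, 26.9% of the Olig1 cells and 63.6% of the Olig2 cells. Olig1 and C1ql1 were both carried by 1 cell, a red cell of 2 months, and Olig2 and C1ql1 by 0. Genes carried by so few cells would seldom meet by chance, so the counts of 1 and 0 do not show that they keep apart. Across the 82 cells Spearman's rho of Olig1 with Olig2 was 0.25, of Olig1 with C1ql1 −0.08 and of Olig2 with C1ql1 −0.17. These are weak values in sparse counts from shared libraries and describe the cells only.

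**Figure D3:**
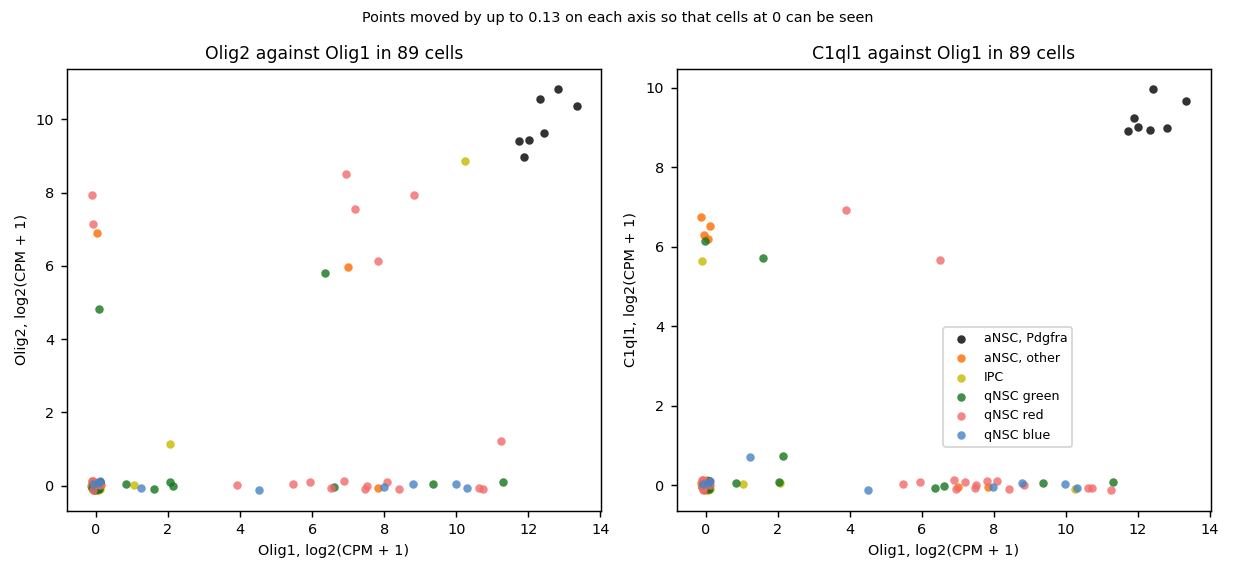
Olig2 (left, vertical axis) and C1ql1 (right, vertical axis) against Olig1 (horizontal axis), as log2(CPM + 1), in the 89 cells, coloured by class and qNSC colour. The 7 Pdgfra cells form a group high on both axes, while most other cells with Olig1 lie on the horizontal axis and 7 of them carry Olig2 as well.

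The red cells with Olig1 were set beside the red cells without it. Those with Olig1 (15 cells) carried a median of 7 of 20 further precursor genes, 11 of 12 astrocyte markers and 1 of 10 mature oligodendrocyte markers. Red cells without it (11 cells) had the same 3 medians. The summed astrocyte level of the red cells with Olig1 ran from 21584 to 47593 CPM and of those without from 19931 to 45556 CPM, against 909 to 2480 CPM in the Pdgfra cells. Nxph1, Matn4, Cacng4 and Tmem163 were carried by none of the 82, but they were named with their absence outside the Pdgfra cells known. Other genes of the same lists were carried by some of the 82, such as Vcan and Sulf2 by 5 each and Sox8 by 31.

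One of the Olig1 cells stood apart from its colour. A green cell of 4.5 months with 629 Olig1 counts and 4 Sox10 counts, the highest Sox10 count outside the Pdgfra cells, carried 10 of 10 mature oligodendrocyte markers, 17 of 18 myelin genes and 11 of 12 astrocyte markers. Whether this library held more than 1 cell was not tested. A red cell of 4.5 months with 73 C1ql1 counts carried 5 of 10 mature oligodendrocyte markers. Without the green cell, Olig1 was carried by 25 of 81 cells (30.9%).

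Between the colours of the qNSC class, Olig1 was higher in red than in green cells, with means of 4.73 ± 4.11 (SD, 26 cells) and 1.61 ± 3.20 (SD, 25 cells), a difference of 3.13. It was carried by 57.7% of red cells (36.9 to 76.6) and 16% of green cells (4.54 to 36.1). The difference was seen in each age, 3.79 at 2 months and 2.40 at 4.5 months, and was 3.45 without the green cell with all mature oligodendrocyte markers. Olig2 was higher in red by 1.36, with 0.33 at 2 months, where too few cells had a read for it to count as measured, and 2.33 at 4.5 months. Fewer than 20% of the green cells had an Olig2 read, so Olig2 counted as measured only through the red cells and could hardly come out lower. Within an age, 19.4% of all genes were higher in red by 1 or more and 19.9% lower at 2 months, and 18.1% and 24.1% at 4.5 months. Olig1 and Olig2 were the 2 members measured here, beside 12.9% of all genes higher in red by 1 or more and 15.7% lower. Both differences were smaller than the SD of the red cells, and colours may themselves have been drawn from expression.

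The gene lists were set beside the shares of all genes between the colours, 12.9% higher in red by 1 or more and 15.7% lower. Of 10 further precursor genes measured, Bcan (10.28 ± 1.21 in red, 8.89 ± 2.07 in green) and Rlbp1 (5.47 ± 3.63 and 4.24 ± 4.25), a retinoid-binding protein, were higher in red by 1 or more, and Emid1 (2.48 ± 3.56 and 5.48 ± 3.48) was lower. Of 5 committed precursor genes measured 1 was higher and 1 lower. The higher one was Itpr2, a calcium release channel, carried by 15 of 26 red and 5 of 25 green cells, and the lower one was Tcf7l2, a transcription factor of Wnt signalling, at 3.02 ± 2.39 in red and 4.16 ± 2.57 in green. With so few precursor and committed precursor genes measured, their counts do not set these lists apart from the shares of all genes. Over both ages none of the 8 myelin genes measured differed by 1 or more. At 2 months 1 of 5 measured was higher in red, beside 19.4% of all genes. At 4.5 months 9 of 15 were lower and none higher, beside 24.1% and 18.1% of all genes, with a median of −1.10. The green cells of 4.5 months include the cell with 17 of 18 myelin genes. Without it 2 of 13 measured were lower and 1 higher, beside 24.3% and 21.1% of all genes, with a median of −0.14. Over both ages, 6 of the 12 astrocyte markers were higher in red by 1 or more and none lower, beside 12.9% and 15.7% of all genes. Of 13 measured quiescent stem cell genes 1 was higher and 7 lower, beside the same shares. The part of these shifts in the Olig1 difference was not tested.

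Between the ages of the qNSC cells, Olig1 was nearly level, at 3.33 ± 3.67 (SD, 28 cells) at 4.5 months and 3.53 ± 4.44 (SD, 32 cells) at 2 months. Olig2 was at 1.57 ± 3.09 at 4.5 months and 0.42 ± 1.52 at 2 months, a difference of 1.15, beside 6.21% of all genes higher by 1 or more and 16.7% lower. In the red cells alone Olig2 was higher by 2.26 at 4.5 months and Olig1 was at 4.18 ± 3.62 against 5.29 ± 4.63, where 16% of all genes were higher by 1 or more and 22.8% lower. In both comparisons too few cells of 2 months had an Olig2 read, so Olig2 counted as measured only through the cells of 4.5 months. It could hardly come out lower at 4.5 months, so its differences are not set apart from the shares of all genes. The red Olig1 cells with over 1000 counts were all of 2 months, and 5 of the 6 red Olig2 cells were of 4.5 months. C1ql1 was read in too few qNSC cells to be compared.

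The genes that went with Olig1, Olig2 and C1ql1 were then sought in the 82 cells. Spearman's rho of log2(CPM + 1) was taken over the 8038 other genes with 10 or more counts in at least 9 of these cells. A gene was said to go with one of the 3 where rho was at least 0.4 and above 0 in each age and in the qNSC cells alone. Cells share library preparation and differ in depth and class, so each rho is a description and has no p. Against total counts, rho was 0.07 for Olig1, 0.20 for Olig2 and −0.06 for C1ql1. Against the number of genes read per cell, rho was −0.07 for Olig1, 0.06 for Olig2 and 0.20 for C1ql1. The part of either in the genes named below was not tested.

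With Olig1 went 15 genes, 0.187% of those compared. The highest was Ntsr2, a neurotensin receptor of astrocytes, with rho 0.51 over 82 cells, 0.57 at 2 months, 0.44 at 4.5 months, 0.55 in qNSC cells and 0.61 in red cells alone. Ntsr2 was carried by 26 of 26 Olig1 cells and 49 of 56 others, with median levels of 5090 and 2640 CPM. Slc2a1, the glucose transporter of the blood-brain barrier and glia, followed with rho 0.48, carried by 22 of 26 and 24 of 56 cells. Csrp1 (0.47), Serpine2 (0.46), Rab4a (0.45), Ank2 (0.45), the sphingosine phosphate receptor gene S1pr1 (0.45), Tuba4a (0.44), Hacd2 (0.44), the phosphofructokinase gene Pfkm (0.43), the sodium pump subunit gene Atp1b2 (0.43) and Smox (0.41) completed the 12 highest.

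Some of these held within a single colour and some did not. In the 26 red cells Rab4a was at 0.62 and Pfkm at 0.45, while Serpine2 was at 0.01 and Hacd2 at −0.13. Atp1b2 stood at 0.69 at 2 months and 0.14 at 4.5 months. In so few cells 2.55% of all genes reached 0.4 with Olig1, so a value of that size in red cells is common.

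At the other end 10 genes, 0.124%, had a rho of −0.4 or less with Olig1. Among the lowest were the tRNA splicing gene Tsen15 (−0.42) and Srsf9, Rpl21 and Rae1, each at −0.41. Rpl21, which encodes a ribosomal protein, was carried by 13 of 26 Olig1 cells and 52 of 56 others, and Srsf9, a splicing factor, by 9 of 26 and 40 of 56.

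**Figure D4:**
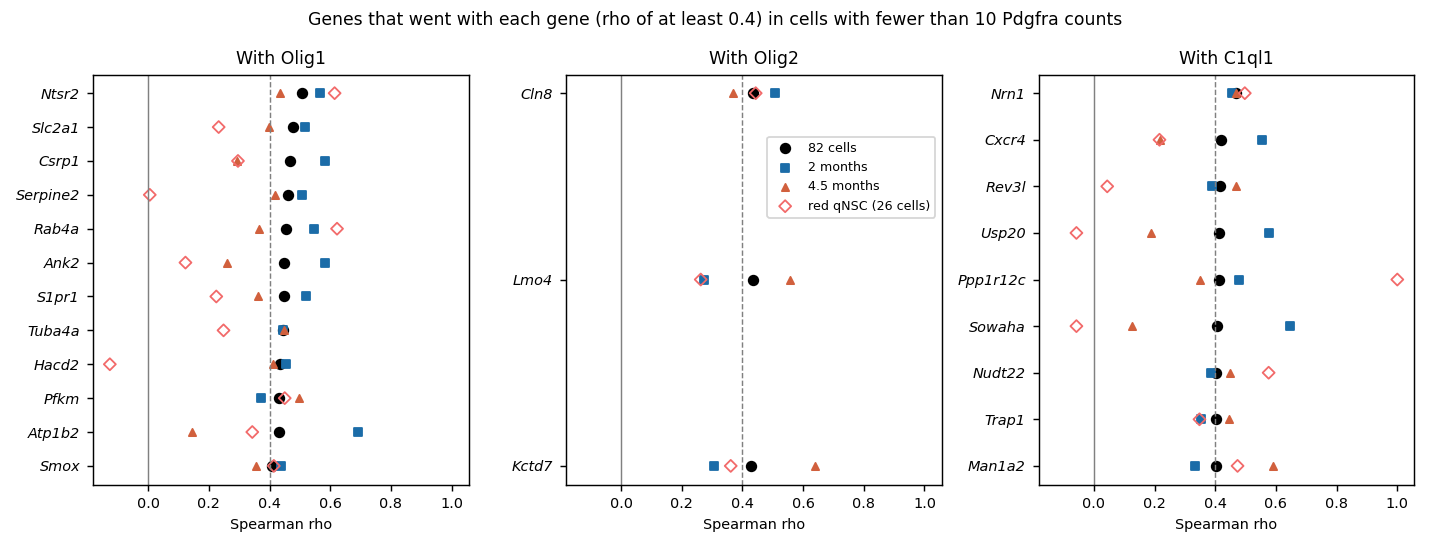
Spearman's rho (horizontal axis) of the named genes that went with Olig1, Olig2 and C1ql1 over the 82 cells (black), in each age and in the 26 red qNSC cells; the dashed line marks 0.4. Ntsr2 stays above 0.4 with Olig1 in all 4 sets, whereas Serpine2 and Hacd2 fall to 0.01 and −0.13 in red cells.

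With Olig2 went 4 genes, 0.0498% of those compared, and none had a rho of −0.4 or less. Cln8, a membrane protein of the endoplasmic reticulum, was at 0.44 and was carried by 9 of 11 Olig2 cells and 19 of 71 others. Lmo4, a LIM-domain transcriptional cofactor, was also at 0.44 and was carried by 11 of 11 and 21 of 71 cells. Kctd7, at 0.43, was carried by 5 of 11 and 4 of 71 cells. The fourth is a gene with a clone name. Fzd9, a Wnt receptor, was next at 0.38, carried by 9 of 11 and 17 of 71 cells, and lower values were found for Scn8a, Nadk2, Tctn2, Atg14, Stat5b, Rnf113a2 and Zhx3 between 0.35 and 0.36. The lowest were Cdc37 and Nme7, each at −0.33, Actr1b (−0.31), Tmem19 (−0.30) and Hspb8 (−0.29).

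With C1ql1 went 9 genes, 0.112%, and none had a rho of −0.4 or less. Nrn1, which encodes neuritin, a secreted neurotrophic protein, was highest at 0.47, with 0.46 at 2 months, 0.47 at 4.5 months and 0.50 in red cells, and was carried by 7 of 9 C1ql1 cells and 17 of 73 others. The chemokine receptor gene Cxcr4 was at 0.42, carried by 6 of 9 and 6 of 73 cells, with 0.56 at 2 months and 0.22 at 4.5 months. Rev3l (0.42), Usp20 (0.41), Ppp1r12c (0.41), Sowaha, Nudt22, Trap1 and Man1a2 (each at 0.40) were the others, and Zfp513, Rcn1 and Lrp10 came next at 0.39 or 0.40. Trap1, a mitochondrial chaperone, was carried by 8 of 9 and 27 of 73 cells. Only 2 red cells carried C1ql1, so each rho with it in red cells rests on them. Without the 2 cells of highest C1ql1 level, 2 of the 9 genes remained among the 9 then found. The lowest were Rorb and Atp5o, each at −0.33, Ube2q1 (−0.32), Ube2r2 (−0.30) and Usp8 (−0.29). The 12 highest genes of Olig1, of Olig2 and of C1ql1 shared 0 genes. Lists of 12 out of 8038 genes compared would seldom share a gene by chance. The count of 0 therefore does not show that the lists are separate.

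Of the further lineage genes, 11 of 20 precursor, 5 of 13 committed precursor and 5 of 18 myelin genes could be compared. Of these, 0 went with any of the 3, beside 0.187% of all genes for Olig1, 0.0498% for Olig2 and 0.112% for C1ql1. With shares so low, a count of 0 in so few genes does not set them apart from the background. With Olig1, 6 of the 11 precursor genes had a positive rho, with a median of 0.09 and Bcan highest at 0.39, beside a median of −0.03 over all genes. The 12 astrocyte markers were all positive with Olig1, from 0.02 to 0.43, with a median of 0.23. In the qNSC cells alone their median was 0.06 and in the red cells alone −0.06, so the lean towards astrocyte markers was seen across classes and not within the red cells. The 5 intermediate progenitor and 5 cycling genes compared were all negative with Olig1, with medians of −0.23 and −0.20. With C1ql1 the 5 cycling genes were all positive, with a median of 0.11, and the highest was Mcm7 at 0.28. In the qNSC cells alone 2 of 5 were positive, with a median of −0.06, and in the red cells 1 of 4, with a median of −0.08.

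Lhfpl3 overlaps other annotated genes, and reads carry no strand with this kit. A930003O13Rik, which overlaps it, had 2 to 26 counts in the Pdgfra cells and none in the others, and 6030443J06Rik had none in the Pdgfra cells, beside at least 1043 counts of Lhfpl3 in each.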

How the data were processed

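Single cells of the dentate gyrus of 89 samples, 1 cell each, were sequenced with a full-length template-switching kit, per the labels' protocols. The authors deposited estimated counts per gene and cell and a second table in TPM, made with STAR and RSEM on the build mm10 according to the submitters' processing notes, which give no versions. Fractional values made up 4.44% of the non-zero entries (tolerance 1e-06) and were rounded where whole counts were needed. Classes and colour codes, and the cell names that join the tables, come from another table the authors deposited. No step between reads and counts beyond these names is given in the sources used here.

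Counts were scaled to CPM and taken as log2(CPM + 1), in Python 3.11.15 with pandas 2.3.3, numpy 2.4.6 and scipy 1.17.1. A cell carried a gene at 10 or more counts, and a gene was measured in a comparison where 20% of the cells of either group had a read. A difference counted from 1 in mean log2(CPM + 1), which understates the change of low genes. Intervals are exact at 95%. For a count of 0 the upper bound was taken as 3 cells of the total, which is an approximation and not the exact interval. Since the reads carry no molecular identifiers, both cover counting error only. No pair of cells had identical counts. For alternatives, cells were thinned to 400000 counts, which 81 cells reached and 8 did not (6 of 2 months, 2 of 4.5 months).

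The 9 genes, the gene lists and the rule for named genes were chosen with earlier results of these data known. The rule named the 9 genes, the 12 genes of highest and 5 of lowest rho with Olig1, Olig2 and C1ql1 (without predicted genes, clone names, pseudogenes and sex-linked transcripts), the 3 genes of each list that differed most between cells with and without 10 Pdgfra counts, and list genes carried beside Olig2 or C1ql1. List genes named beyond it were chosen after their values were seen. Some genes that the rule takes are not reported here. The scripts were tested on simulated data. Alternatives were another pseudocount (10), TPM, no filter on low values, thinning, other limits for a cell (5 and 50 counts), Pearson's r, subsets of the cells and, chosen after seeing the data, red qNSC cells alone and the removal of 1 green cell, for the members and the gene lists.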

Additional observations from a re-analysis of the deposited data

Results flagged for a closer look

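Single cells far from the rest of their group were looked for in 12 sets of 4 to 10 cells, the 9 genes in the 7 Pdgfra cells and the 3 genes with a count in the 9 blue qNSC cells (Olig1, C1ql1 and Cspg4), and chance alone marks about 1 set in 20. In the Pdgfra cells, Sox10 had a lowest cell at 6.78 in log2(CPM + 1), a 2-month cell with 86 counts, apart from the other 6. Gpr17 had a lowest cell at 0, the 4.5-month cell with no count, while the other 6 had 72 to 930 counts. In the blue qNSC cells C1ql1 had a highest cell at 0.77, which is 1 count, the other cells having none.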

How the results depend on the processing

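No paired analysis was possible because each sample is 1 cell, no label ties cells of the 2 ages to each other, and no test was made. Without the 7 Pdgfra cells, the members higher in aNSC than in qNSC by 1 or more numbered 1 in place of 9, and the differences became −2.09 for Olig1, −0.039 for Sox10, −0.075 for Pdgfra, −0.051 for Neu4, −0.015 for Gpr17 and −0.021 for Lhfpl3, by the construction of leaving those cells out. With a pseudocount of 10, the members higher in red than in green numbered 1 in place of 2 (Olig2 at 0.81) and those higher at 4.5 months in qNSC 0 in place of 1 (Olig2 at 0.68). The 28 genes that went with Olig1, Olig2 or C1ql1 became 55 in the qNSC cells alone (12 of the 28 among them), 49 with no filter on low values (28 of 28) and 558 in the red cells alone (10 of 28). Without the 2 cells of highest level 2 of the 9 C1ql1 genes remained, and in the qNSC cells alone 1 of the 4 Olig2 genes. Thinned cells kept 16 of the 28 and Pearson's r 15, so membership of these short lists depends on the measure. The share of cells with Olig1, 31.7%, ran from 28% with a limit of 50 counts to 35.4% with a limit of 5. For the genes carried by 0 of the 82 cells, the number of cells limits the share with 10 or more counts to about 3.66%. That value is the approximate bound of 3 cells of the total and not an exact interval. This bounds cells with 10 or more counts, not cells that express the gene.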
